A study of Mus musculus with 8 samples.

Results

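The mRNA levels of 10 genes that set the nuclear output and the upstream input of the Hippo pathway were compared between livers of Brap LKO mice and of their Brap F/F controls. The genes were chosen by symbol from the 24451 genes of the deposited table of normalized counts, and all 10 were found and tested. They are the TEAD factors Tead1 to Tead4, the TEAD corepressor Vgll4, the angiomotins Amot, Amotl1 and Amotl2, and the membrane scaffold genes Nf2 and Wwc1. Both groups carried loxP-flanked Brap alleles on a C57BL/6 background (C57BL/6J in the study's methods), in which Cre removes exons 2 and 3. The LKO and the control livers below are those of these 2 groups. The 4 Brap LKO mice also carried the Alb Cre transgene, which is driven by the albumin promoter and acts in hepatocytes. The 4 Brap F/F mice, labelled wild type, carried no Cre, so an effect of Cre and an effect of Brap loss cannot be told apart. Age (18 wk), a 6 h fast and the sampled left lobe were shared by both groups, and the study's methods describe male mice. The animal numbers of the labels were mostly lower in the LKO group and mostly higher in the controls. Animal number and group can therefore be separated only in part.

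TEAD proteins bind DNA but need a partner to act on transcription. When the Hippo kinases MST1, MST2, LATS1 and LATS2 are inactive, the coactivators YAP and TAZ enter the nucleus and join TEAD on genes for growth, matrix and the cytoskeleton. VGLL4 occupies the same TEAD proteins and opposes YAP. Angiomotins hold YAP at tight junctions and actin, and NF2 (merlin) and WWC1 (KIBRA) bring the LATS kinases to the cell membrane. In the mouse liver, loss of Nf2 leads to overgrowth of hepatocytes and bile duct cells.

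With limma, none (0) of the 10 genes passed the threshold, an adjusted p under 0.05, which 0.769% of all 15352 genes tested passed. On the recovered reads the number was also 0 with edgeR's quasi-likelihood test, which called 0.795% of the 15352 genes. It was 0 with DESeq2 as well, which called 3.70% of the 16387 genes that it gave an adjusted p. At an unadjusted p-value under 0.05 from limma there were 2, Amot and Amotl1, and 15.8% of all tested genes had such a value. In none (0) of the 10 genes did the 4 livers of one group all lie above the 4 of the other, which held for 9.87% of the tested genes. The fitted differences pointed upward in Brap LKO livers for 5 genes and downward for 5. Their median log2 fold change was 0.01, against -0.01 over all tested genes, and the median size of the difference without its sign was 0.29, against 0.15. The 95% intervals of 7 genes stayed within a log2 fold change of 1 in either direction, and those of Tead1, Tead2 and Tead4 did not. The limma p-values and intervals weigh the difference between the groups against the spread of the 4 livers within each group. This spread is pooled over both groups and moderated across genes.

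The livers had 26280884 to 33313914 reads in genes. Normalized counts, the unit of the levels below, are reads divided by the DESeq2 size factor of the liver, and 1 read was worth between 0.850 and 1.14. Brap itself was at 3641 to 4203 in LKO livers and 3994 to 4410 in controls, with limma giving a log2 fold change of -0.07 (adjusted p = 0.631). Reads on the deleted exons were not analysed here, so Brap did not check the labels. Brap F/F replicates 2 and 3 stood apart from the other 6 livers on the first principal component of all tested genes, which carried 37.2% of the variance. Their scores were 49.7 and 48.4, while the others lay between -41.4 and 0.61. The other controls, replicates 1 and 4, stood apart on the second component, with scores of -42.6 and -36.0 against 4.83 to 24.3 in the other 6 livers. Results that rest on replicates 2 and 3 are given with and without them. Replicates 1 and 4 were left out singly but not as a pair.

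**Figure D1:**
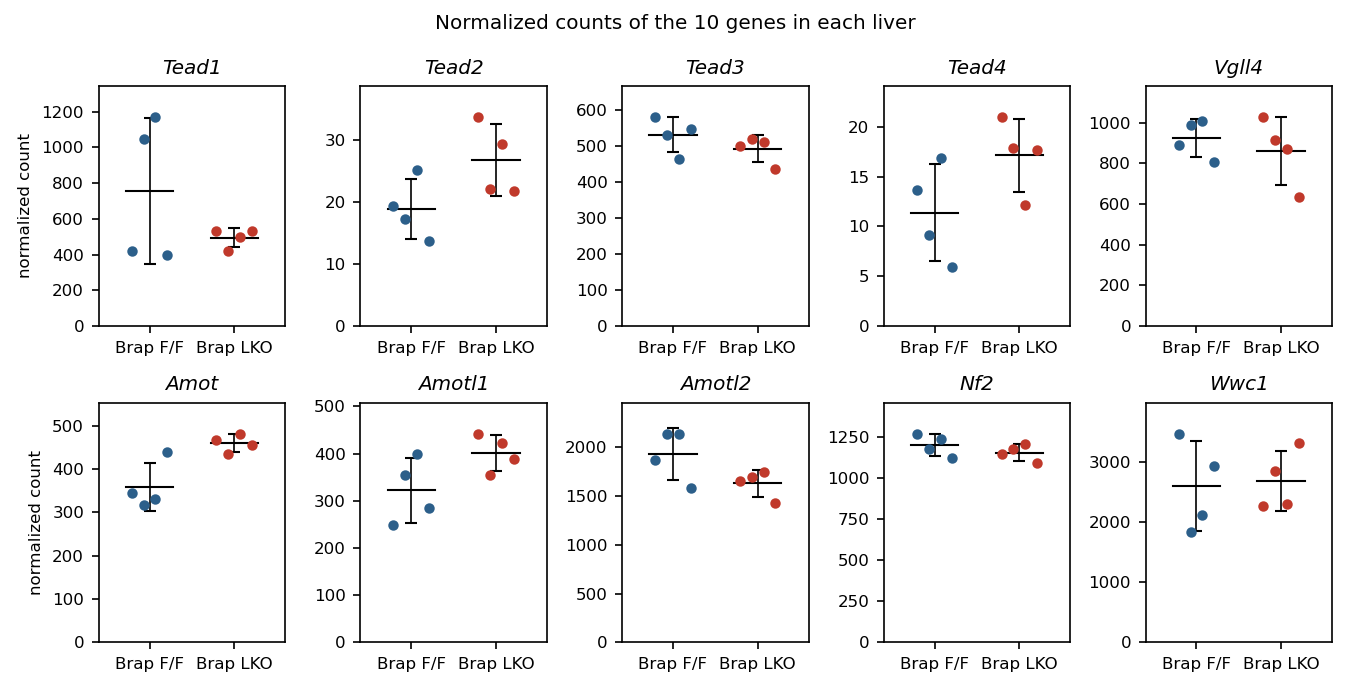
Normalized counts (vertical axis, from 0) of the 10 genes in the 4 Brap F/F livers (blue) and the 4 Brap LKO livers (red), with replicates 1 to 4 from left to right in each group, a horizontal line at the mean and bars of 1 SD. The groups overlap in every panel, and Tead1 in Brap F/F replicates 2 and 3 stands at 1046 and 1169, above all other livers.

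Tead1 was the most uneven of the TEAD genes among the control livers. It lies on chromosome 7 of mm10 from 112679318 to 112906807. LKO replicates 1 to 4 had normalized counts of 529, 419, 501 and 531. Control replicates 1 to 4 had 417, 1046, 1169 and 396. The LKO livers thus lay between the pair of low and the pair of high control livers, and the coefficient of variation was 10.6% in the LKO livers and 53.9% in the controls. Its log2 fold change was -0.44 (95% interval -1.22 to 0.33, limma, adjusted p = 0.552). Without control replicates 2 and 3 it was 0.28 (0.0044 to 0.55, limma, adjusted p = 0.291), so its sign rested on these livers. This pair was left out after seeing the data. Without control replicate 1 alone the log2 fold change was -0.67, and without control replicate 4 alone it was -0.70. Summed markers of stellate cells and fibroblasts were 9329 and 10021 normalized counts in control replicates 2 and 3 against 5765 and 7179 in replicates 1 and 4, and those of endothelium were 11069 and 12264 against 8177 and 8692. Hepatocyte markers were also higher in replicates 2 and 3 (4741914 and 4008539 against 3211569 and 3650846), and cholangiocyte markers were lower (2884 and 2811 against 3199 and 3996). In the LKO livers the stellate sums were 8765 to 13219 and the endothelial sums 9613 to 13478. The part of these markers in the Tead1 counts was not tested.

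Tead3, on chromosome 17 from 28331671 to 28350817, had 501, 521, 512 and 438 normalized counts in the LKO livers. In the controls it had 580, 532, 465 and 548. A single LKO liver, replicate 4, lay below all control livers. Its log2 fold change was -0.11, and the 95% interval of -0.32 to 0.10 was the narrowest of the 4 TEAD genes (limma, adjusted p = 0.597). The value was 0.050 with every liver scaled to the same total, a scaling that moved the median of all tested genes to 0.15.

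Tead2 and Tead4 were counted at much lower levels. Tead2 (chromosome 7, 45215753 to 45233644) had 33.7, 22.1, 29.3 and 21.8 normalized counts in the LKO livers and 19.4, 17.3, 25.2 and 13.7 in the controls. Tead4 (chromosome 6, 128224288 to 128300823) had 21.0, 17.8, 12.1 and 17.7 normalized counts in the former and 13.7, 9.15, 16.8 and 5.89 in the latter. In both genes the Brap LKO mean was the higher, with overlap between the groups. Tead2 had a log2 fold change of 0.49 (95% interval -0.07 to 1.04, limma, adjusted p = 0.373). That of Tead4 was 0.62 (-0.14 to 1.37, limma, adjusted p = 0.399). Tead4 rested on 6 to 23 reads per liver, and at this depth a change of the size seen could not be told from the spread between livers. All fold changes are on the log2(normalized count + 1) scale, which can understate those of low genes, and for Tead4 edgeR gave a log2 fold change of 0.61 on the reads. Tead2 shares 13 exon bases (0.272%) with Cd37 on the opposite strand, and no other of the 10 genes shares exon bases with another annotated gene.

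Vgll4, on chromosome 6 from 114860628 to 114969994, had 1027, 915, 869 and 632 normalized counts in the LKO livers. The controls had 888, 988, 1008 and 807. LKO replicates 1 and 4 were the highest and the lowest of all 8 livers. Between the groups, the log2 fold change was -0.12 (95% interval -0.44 to 0.21, limma, adjusted p = 0.716), and it was 0.024 without LKO replicate 4 and 0.041 with the same total per liver.

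The angiomotin genes had the smallest p-values of the 10 genes, in opposite directions. Amot encodes the member that gave the family its name and lies on chromosome X from 145446425 to 145505181. It had 468, 435, 482 and 457 normalized counts in the LKO livers. In the controls it had 345, 316, 332 and 441. Control replicate 4 was the only control liver to reach the Brap LKO range. Between the groups the log2 fold change was 0.37 (95% interval 0.13 to 0.61, limma, adjusted p = 0.159), a 1.29-fold difference. A two-sided exact permutation test gave p = 0.0571, where 0.0286 is the smallest p that 4 livers against 4 allow. Without control replicate 4, Amot passed the threshold (0.47, limma, adjusted p = 0.0346), and over all other settings its adjusted p lay between 0.0504 and 0.359. Without control replicates 2 and 3 the log2 fold change was 0.24, with an interval that included 0 (-0.03 to 0.50, limma, adjusted p = 0.352).

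Amotl1, which encodes a junction protein of the same family, lies on chromosome 9 from 14541966 to 14645056. Its normalized counts were 442, 354, 422 and 389 in the LKO livers. They were 249, 355, 399 and 285 in the controls, so that 2 LKO livers lay above all controls. The log2 fold change was 0.34 (95% interval 0.00092 to 0.68, limma, adjusted p = 0.315; two-sided exact permutation test, p = 0.143). Without control replicates 2 and 3 it was 0.59 (0.31 to 0.87, limma, adjusted p = 0.0681). This pair, left out after seeing the data, held the highest control counts, so leaving it out had to raise the difference. Without control replicate 1, the lowest control, the log2 fold change was 0.22 (-0.08 to 0.53, limma, adjusted p = 0.436).

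Amotl2, on chromosome 9 from 102716672 to 102733418, is itself a well known YAP and TEAD target as well as an inhibitor of YAP. It had 1655, 1690, 1742 and 1426 normalized counts in the LKO livers. The controls had 1869, 2134, 2132 and 1576, and 3 of them lay above all LKO livers. Its log2 fold change was -0.24 (95% interval -0.48 to 0.01, limma, adjusted p = 0.335; two-sided exact permutation test, p = 0.114). This interval did not reach a fold above 1.01, but those of other settings reached further. With the same total per liver the log2 fold change was -0.079 (95% interval -0.30 to 0.14, limma, adjusted p = 0.661). Without control replicates 2 and 3 it was -0.08 (-0.33 to 0.17, limma, adjusted p = 0.755).

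Nf2 varied little. It lies on chromosome 11 from 4765845 to 4849536 and had 1149, 1176, 1210 and 1092 normalized counts in the LKO livers. The controls had 1271, 1176, 1243 and 1122. Its coefficient of variation was 4.31% in the LKO livers, where Amot alone of the 10 genes was as even (4.29%), and 5.57% in the controls, where it was the lowest of the 10. The log2 fold change of -0.06 had a 95% interval of -0.20 to 0.09 (limma, adjusted p = 0.700), which corresponds to folds between 0.868 and 1.07. With the same total per liver the log2 fold change was 0.10.

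Wwc1, on chromosome 11 from 35838400 to 35980527, varied more. It had 2278, 2855, 2315 and 3318 normalized counts in the LKO livers and 3476, 1844, 2127 and 2948 in the controls. The control livers with the high Tead1 counts, replicates 2 and 3, had the lowest Wwc1 counts of all 8 livers. Between the groups, the log2 fold change was 0.08 (95% interval -0.38 to 0.54, limma, adjusted p = 0.873). Without these livers it was -0.27 (-0.63 to 0.09, limma, adjusted p = 0.439).

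**Figure D2:**
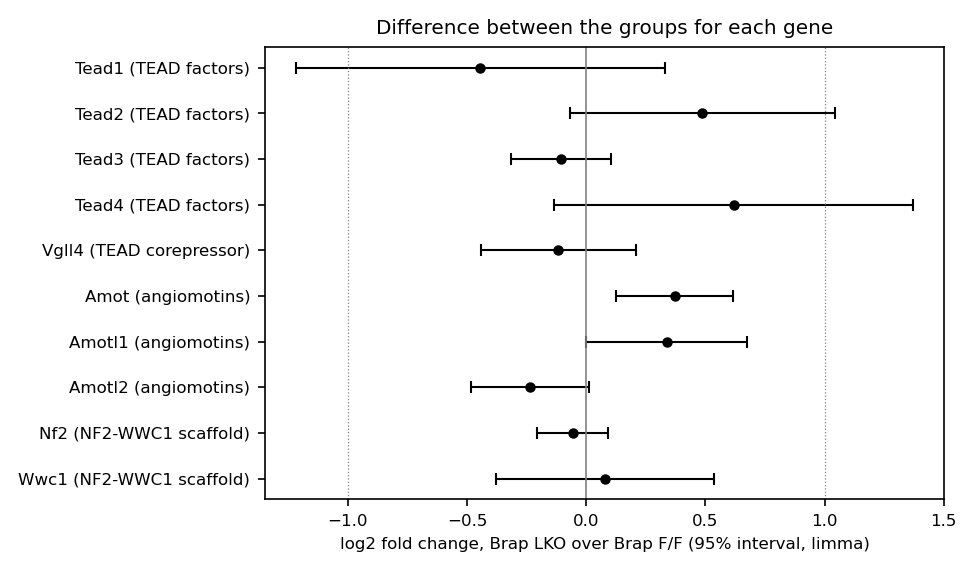
Log2 fold change of each gene (horizontal axis, Brap LKO over Brap F/F) with its 95% interval from limma, and dotted lines at a log2 fold change of 1 in either direction. The interval of Amot (0.13 to 0.61) lies above 0, that of Amotl1 begins at 0.00092, and those of the other genes include 0.

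Levels were compared between genes as normalized counts per kilobase of merged exons. By this measure Wwc1 was the highest of the 10 genes, at 543 ± 99.6 (SD, n = 4) in the LKO livers and 524 ± 151 (SD, n = 4) in the controls. Amotl2 followed with 259 ± 22.2 and 306 ± 42.2 per kilobase (SD, n = 4 each), with no overlap with Wwc1 in either group. Nf2 (169 and 176 per kilobase) and Vgll4 (160 and 171 per kilobase) came next, with ranges that overlapped. Tead3 was the most abundant TEAD mRNA, at 73.4 ± 5.59 and 79.1 ± 7.27 per kilobase (SD, n = 4 each). Amot, Tead1 and Amotl1 formed a group between 24.7 and 86.1 per kilobase in which the order differed between livers. Tead2 (5.59 and 3.95 per kilobase) and Tead4 (4.77 and 3.16 per kilobase) were lowest, and their ranges overlapped within each group. With the length of the transcript with the longest coding sequence in place of merged exons, Wwc1 stayed highest by its means but the order below it changed. The means in the LKO livers and the controls were then 424 and 455 per kilobase for Vgll4, 386 and 457 for Amotl2, 201 and 217 for Tead3 and 132 and 106 for Amotl1, while the order of the TEAD genes by their means over the livers of each group was the same. Fewer cells of a type and less RNA per cell cannot be told apart in these bulk samples.

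The makeup of each family does not depend on the scaling between livers, because all members are divided by the total of the same liver. Of the summed TEAD mRNA per kilobase, Tead3 made up 61.0% ± 3.72 (SD, n = 4) in the LKO livers and 57.6% ± 14.5 (SD, n = 4) in the controls. Tead1 made up 30.8%, 26.2%, 30.1% and 34.4% in the LKO livers and 24.6%, 47.5%, 52.1% and 25.3% in the controls. By this length Tead1 exceeded Tead3 in control replicate 3 alone. By the length of the transcript with the longest coding sequence, Tead1 made up 14.5% to 36.7% of the TEAD total in the controls and 15.7% to 21.8% in the LKO livers, below Tead3 in every liver. Tead2 took 3.91% to 5.57% of the TEAD total in the LKO livers and 2.22% to 3.24% in the controls, with no overlap by either length. Tead2 rested on 14 to 37 reads per liver, and its normalized counts did overlap between the groups. Its share also depends on Tead1, which is part of the total. For comparison, the ratio to this TEAD total did not overlap between the groups in 11.0% of all tested genes. The TEAD total was 114 to 126 per kilobase in the LKO livers and 115 to 165 in the controls, where replicates 2 and 3 held the highest values.

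Of the angiomotin total, Amotl2 made up 72.5%, 75.5%, 73.6% and 70.9% in the LKO livers. It made up 81.9%, 82.3%, 81.1% and 75.6% in the controls. The groups did not overlap, but the highest LKO liver (75.5%) and the lowest control liver (75.6%) were nearly level. Amotl1 took 9.90% to 12.1% in the LKO livers and 6.80% to 9.49% in the controls, again without overlap. Amot took 14.6% to 17.0% and 9.13% to 15.8%, and here control replicate 4 overlapped the LKO livers. By transcript length the order of Amot and Amotl1 turned. Amotl1 then took 20.1% to 24.0% in the LKO livers and 14.2% to 19.2% in the controls, Amotl2 63.6% to 69.1% and 70.4% to 77.1%, and Amot 10.8% to 12.4% and 6.81% to 11.9%. Overlap was as before for each gene. Of all tested genes, 8.17% had a ratio to the angiomotin total that did not overlap. The ratio of the Amotl1 to the Amotl2 normalized count was 0.267, 0.210, 0.242 and 0.273 in the LKO livers and 0.133, 0.166, 0.187 and 0.181 in the controls. A ratio to Amotl2 without overlap was found in 11.5% of all other tested genes. Of 6 ratios computed between the 10 genes this was the only one without overlap. The others were Amot to Amotl2, Amot to Amotl1, Tead1 to Tead3, Vgll4 to Tead3 and Wwc1 to Nf2. These shares and ratios are given as a description, and they depend on each other within a family.

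**Figure D3:**
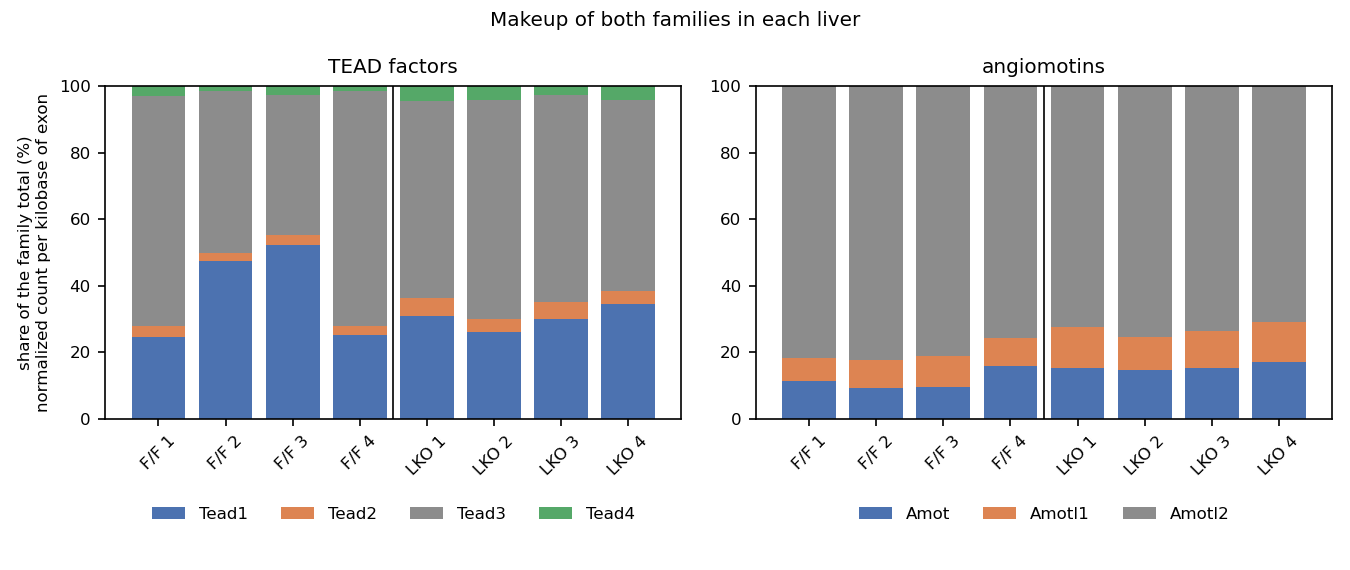
Share of each gene in the summed normalized count per kilobase of its family (vertical axis, percent) for each liver, with the TEAD genes on the left and the angiomotin genes on the right, and the controls to the left of the black line. Tead1 takes 47.5% and 52.1% in control replicates 2 and 3, and Amotl2 takes a smaller share in every LKO liver than in any control liver.

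The promoters were searched for the letters of the TEAD binding motif, GGAATG, on both strands (CATTCC on the other), because Amotl2 is a known TEAD target. RefSeq promoter windows of 250 bases before and 50 bases after a start were matched for 8 of the 10 genes on GRCm38.p6, the assembly of mm10, and not for Tead1 and Tead4. The letters were present in 4 of 11 windows, from 3 genes, and in 14.7% of all 32851 windows. Windows of a gene can overlap, as did those of Tead3 with matches (28350551 to 28350850 and 28350756 to 28351055). By gene, 3 of the 8 had the letters, against 16.6% of 27025 genes with a window. The windows of Amotl2, of Vgll4 and of the Tead3 start with the most matches are shown 5′ to 3′ on the strand of the gene, with the matches in capitals.
Amotl2 (chr9:102717554-102717853, forward strand): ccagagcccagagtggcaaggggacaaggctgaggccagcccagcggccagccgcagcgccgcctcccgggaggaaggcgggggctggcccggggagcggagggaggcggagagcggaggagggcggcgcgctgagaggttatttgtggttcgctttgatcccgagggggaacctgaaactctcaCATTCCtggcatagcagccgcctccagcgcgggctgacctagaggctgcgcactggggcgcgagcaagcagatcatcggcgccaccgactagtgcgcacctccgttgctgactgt
Vgll4 (chr6:114969154-114969453, reverse strand): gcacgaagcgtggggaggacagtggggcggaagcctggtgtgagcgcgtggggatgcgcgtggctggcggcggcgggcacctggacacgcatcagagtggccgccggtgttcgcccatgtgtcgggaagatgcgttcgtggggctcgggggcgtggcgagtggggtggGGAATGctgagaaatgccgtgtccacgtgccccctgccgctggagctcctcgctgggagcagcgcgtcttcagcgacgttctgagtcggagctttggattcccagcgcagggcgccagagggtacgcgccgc
Tead3 (chr17:28350551-28350850, reverse strand): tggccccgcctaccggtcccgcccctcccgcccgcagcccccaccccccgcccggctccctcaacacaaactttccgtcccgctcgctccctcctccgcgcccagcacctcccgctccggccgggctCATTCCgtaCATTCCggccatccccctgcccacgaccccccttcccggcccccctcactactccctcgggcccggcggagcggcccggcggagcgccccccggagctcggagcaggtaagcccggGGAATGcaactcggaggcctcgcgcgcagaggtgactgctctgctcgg
The match of Amotl2 began at position -65 from the start, that of Vgll4 at -82, and those of Tead3 at -123, -114 and 3. A match is a description of the letters and no measurement of TEAD binding, and none of these genes passed the threshold between the groups.

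Of the rest of the pathway, 68 genes in 5 lists were tested. None (0) passed the threshold with limma, and 9 higher and 1 lower had an unadjusted p-value under 0.05, which 15.8% of all tested genes had. Their median log2 fold change was 0.04. With edgeR's quasi-likelihood test the number past the threshold was 0. With DESeq2, which called 3.70% of its 16387 genes, it was 2, Taok3 and Vgll3. The 9 genes of the kinase cassette and its effectors, with a median log2 fold change of 0.0021, included Yap1 (2513 ± 189 and 2578 ± 254 normalized counts, SD, n = 4) and Mob1b (2048 ± 204 and 2035 ± 199, SD, n = 4), and 0 of the 9 had an unadjusted p-value under 0.05.

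The only other vestigial-like gene tested was Vgll3, which encodes a TEAD cofactor. It had 31.0, 11.9, 22.3 and 15.6 normalized counts in the LKO livers and 4.56, 5.09, 10.5 and 4.91 in the controls. The groups did not overlap, which held for 9.87% of all tested genes. In the controls 3 reads were worth 2.94 to 3.42 normalized counts, so the control values rested on few reads. The log2 fold change of Vgll3, 1.53 (95% interval 0.70 to 2.35), did not pass the threshold (limma, adjusted p = 0.0986). Vgll1 and Vgll2 were not found by symbol in the deposited table.

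Of the 14 kinases that act beside or above the cassette, 7 had higher and 7 lower means on the log2 scale. Taok3, which encodes a kinase of the family that activates MST1 and MST2, had 2934 ± 170 and 2510 ± 85.0 normalized counts (SD, n = 4) without overlap, a log2 fold change of 0.22 (limma, adjusted p = 0.150). Mink1, the other most abundant gene of this list, had a log2 fold change of 0.04 (limma, adjusted p = 0.815). Of the 18 FERM, cadherin and junction regulators, 15 had a log2 fold change above 0, with a median of 0.08. The most abundant, Ctnna1 and Pard3, had values of 0.09 and -0.01. The last list held 26 inhibitors and other regulators of the cassette, among them Rassf1 to Rassf6. Of these 26 genes, 16 were above 0, with a median of 0.03. The most abundant, Ppp2ca and Rassf3, had values of -0.12 and -0.09.

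Of 20 YAP and TEAD target genes tested, 3 passed the threshold, all higher in the LKO livers, against 0.664% of all tested genes called higher. These were Myof, Tgfb2 and Ccn1. The median log2 fold change of the target list was 0.49, and all 20 values were above 0, whereas Amotl2, which was not in that list, was at -0.24. The list was chosen with results of these livers known, so its direction is no independent evidence. The test of a difference between Amotl2 and the other targets was not made.

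**Figure D4:**
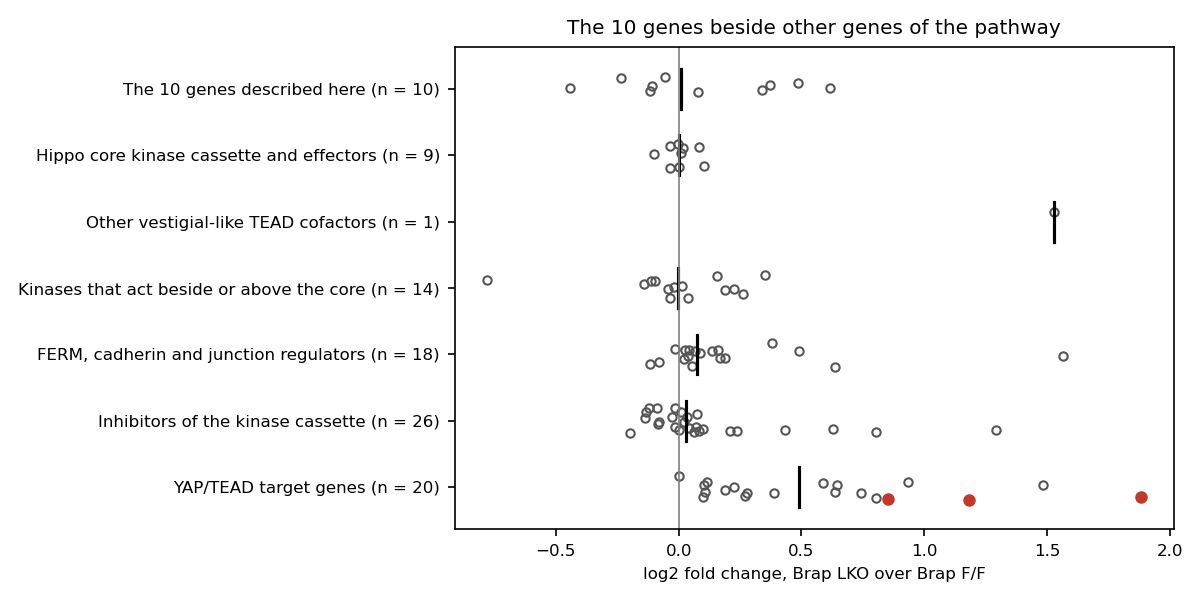
Log2 fold changes (horizontal axis, Brap LKO over Brap F/F) of the 10 genes and of other tested genes of the pathway by list, with open circles for genes that did not pass the threshold, red points for those that did and a black line at each median. The medians of the 10 genes and of the kinase cassette lie at 0.01 and 0.0021, and the red points are the targets Myof, Tgfb2 and Ccn1. The list labelled as inhibitors also holds other regulators of the cassette, among them Rassf1 to Rassf6.

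Markers of liver cell types were read from the same table. The summed normalized counts of 12 cholangiocyte markers were 3647 to 5720 in the LKO livers and 2811 to 3996 in the controls, and all 11 that were tested had a log2 fold change above 0, with Cftr past the threshold. The 12 stellate cell and fibroblast markers summed to 8765 to 13219 and 5765 to 10021, with 11 above 0 and Pdgfrb past the threshold. The sums were 9613 to 13478 and 8177 to 12264 for 12 endothelial markers and 5452 to 9985 and 5714 to 7838 for 12 macrophage and monocyte markers. They were 482 to 745 and 375 to 482 for 12 lymphocyte markers. All 12 endothelial markers, all 12 macrophage and monocyte markers and 11 of the 12 lymphocyte markers had a log2 fold change above 0. Of the macrophage markers, Gpnmb passed the threshold. The 6 mesothelial markers summed to 61.2 to 220 and 50.2 to 163, with Wt1 past the threshold but 3 of the 6 below 0 and a median log2 fold change of -0.03, and 5 red cell markers to 3788 to 4325 and 4197 to 4655. The 12 hepatocyte markers summed to 2619475 to 3530977 and 3211569 to 4741914, with 9 of 12 below 0. None of these markers was at 0 in all livers. Their part in the levels of the TEAD and angiomotin genes was not tested.

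By a rule of likeness, Amot, the gene with the smallest p, was compared with the 11314 other genes that had a mean normalized count of at least 50. The deviations from the group mean over the 8 livers were most like those of Mks1 (Pearson's r = 0.98), Ppp1r14b (0.97) and Lgr4 (0.95), and 36 genes reached 0.9. In these 3 genes control replicate 4 was the highest liver, for Mks1 with 91.3 normalized counts against 45.8 to 70.7 in the others. The points share their libraries, and the values are given as a description.

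**Figure D5:**
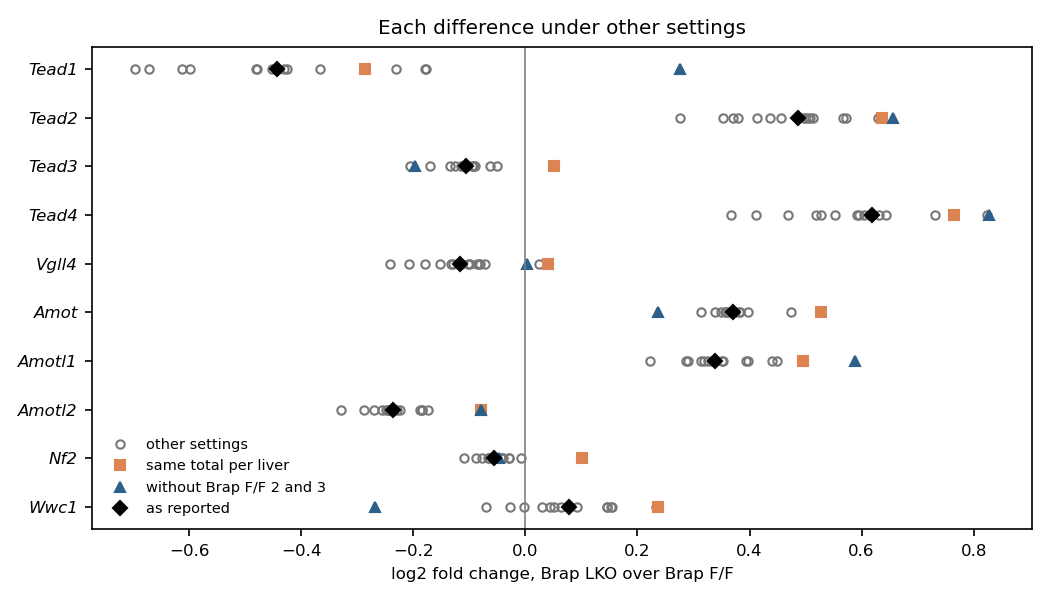
Log2 fold change of each gene (horizontal axis, Brap LKO over Brap F/F) as reported (black diamonds), with every liver scaled to the same total (orange squares), without control replicates 2 and 3 (blue triangles) and under the other settings (open circles). Amot, Amotl1, Tead2 and Tead4 stay above 0 and Amotl2 below 0 throughout, and Tead1 moves from -0.44 to 0.28 without control replicates 2 and 3.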

How the data were processed

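Liver mRNA from 8 mice was analysed, 4 per group. The authors used a NuGEN mRNA kit, read 50 bases from a single end and mapped with STAR 2.6.0c, with mm10 as the genome. The counting tool, the annotation release, the treatment of reads with several matches and the use of strand are not given in the sources used here. The deposited signal, given for 24451 genes, is the gene's read count after the authors' scaling with DESeq2 size factors. All values (100%) were whole multiples, within 1e-06, of the smallest value above 0 of their liver, so reads were recovered. The authors' own DESeq2 comparison (mean, fold change, p-values) was not used.

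The groups were compared with limma 3.58.1 in R 4.3.3 (mean-variance trend, no covariates) on log2(normalized count + 1). The 15352 genes whose normalized counts averaged 5 or more were tested, with Benjamini-Hochberg adjustment over these genes. The count tests edgeR 4.0.16 (quasi-likelihood) and DESeq2 1.42.0 were run on the recovered reads as alternatives. For single genes, an exact permutation test (two-sided) ran through all 70 arrangements. The limma script was tested on simulated data. Positions and lengths are those of GENCODE for mm10. The 10 genes and all lists were chosen with earlier results of these data known. Named genes are the 10 genes, pathway genes past the threshold, the 2 most abundant of each pathway list, target genes past the threshold and the 3 most like the gene with the smallest p. Vgll3, Taok3 and the called marker genes were named after their values were seen. Alternatives were other pseudocounts, filters, scalings and covariates, no trend, and leaving out livers. The exclusion of Brap F/F replicates 2 and 3 together was added after seeing the data. Python 3.11.15 drew the figures with matplotlib 3.10.9.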

Additional observations from a re-analysis of the deposited data

How the results depend on the processing

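Each of the 10 log2 fold changes was recomputed under 20 or 21 other settings. Of the 209 values, 198 kept their direction and their side of the threshold, 1 passed it (Amot without Brap F/F replicate 4) and 10 changed sign. With every liver scaled to the same total, which moved the median of all tested genes to 0.15, the values were 0.10 for Nf2, 0.050 for Tead3 and 0.041 for Vgll4. With 1 liver left out, Vgll4 ranged from -0.21 to 0.024, above 0 without LKO replicate 4 alone. Wwc1 ranged from -0.071 to 0.23, and was below 0 at -0.03 without LKO replicate 4, at -0.071 without F/F replicate 2 and at -0.0027 without F/F replicate 3. For the genes that kept their sign, 1 liver left out moved the value by more than 1.5 times in Tead1 (-0.67 without F/F replicate 1, -0.23 without 2, -0.18 without 3, -0.70 without 4), Tead3 (-0.051 without LKO replicate 4, -0.063 without F/F replicate 1, -0.17 without 3), Tead4 (0.37 without F/F replicate 4), Amotl1 (0.22 without F/F replicate 1) and Nf2 (-0.029 without LKO replicate 4 or F/F replicate 1, -0.089 without F/F replicate 4). Without both F/F replicates 2 and 3, a choice made after seeing the data, the values were 0.28 for Tead1, 0.0021 for Vgll4 and -0.27 for Wwc1. The cause was not tested. Tead4 has no value at a minimum mean of 20, which removes it.

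The number of the 10 genes past the threshold was 0 in every setting but that without Brap F/F replicate 4, and lay between 0 and 1 over the fits that left out 1 liver. For the other pathway genes it was 2 with the same total per liver, 2 with DESeq2, 2 without Brap F/F replicates 2 and 3 (Map4k4 and Ptpn14), and 0 to 1 with 1 liver left out (Ajuba without Brap F/F replicate 4). Over all tested genes it was 118 as reported, 78 after quantile normalization, 479 with the same total per liver, 607 with DESeq2, 18 (LKO replicate 1 omitted, likewise F/F replicate 2) to 232 (F/F replicate 4 omitted) with 1 liver left out, and 170 without Brap F/F replicates 2 and 3. Each of the 8 omissions moved this number by more than 1.5 times. The replicate numbers are only names here: deviations from the group means correlated from -0.13 to 0.29 between same-numbered livers, and not every liver was most like its own number. With the replicate block, 0 of the 10 genes, 0 of the pathway genes and 95 of all tested genes passed the threshold. With the lower or higher animal numbers of the labels as a covariate, these numbers were 0, 0 and 145. The lower animal numbers were those of LKO replicates 1 to 3 and F/F replicate 1. The higher were those of LKO replicate 4 and F/F replicates 2 to 4. Animal number thus largely followed the group, and the covariate can separate them only in part. With this covariate the log2 fold change of Tead1 was -0.18 (limma, adjusted p = 0.875), against -0.44 as reported. Those of Tead3, Vgll4 and Nf2 grew in size to -0.21, -0.24 and -0.11. All 10 genes kept their sign. Depth limits Tead4 most, with 6 to 23 reads per liver.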

Other observations

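The pattern of Tead1 was followed to other genes after its values had been seen. The deviations from the group means over the 8 livers were most like those of Tns1 (Pearson's r = 0.99), which encodes the focal adhesion protein tensin, Ptpn14 (0.99), a phosphatase that binds YAP, and Rerg (0.98), a small GTPase of the RAS family. In all, 211 of 11314 genes reached 0.9. Tns1 had 15457 and 15545 normalized counts in control replicates 2 and 3, 8202 and 8387 in control replicates 1 and 4, and 8039 to 9723 in the LKO livers. Ptpn14 had 136 and 142 in control replicates 2 and 3, 62.7 and 63.8 in control replicates 1 and 4, and 138 to 162 in the LKO livers. Rerg had 110 and 111 in the former pair, 53.6 and 55.9 in the latter, and 87.5 to 102 in the LKO livers. The LKO livers thus lay near the low control pair for Tns1, near the high pair for Ptpn14 and between the pairs for Rerg. These are values from livers that share their libraries, and what separates the control livers was not tested.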
